A study of Mus musculus with 16 samples.

Results

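The genes described are 10 components of the tumour matrix and of the enzymes that crosslink it: Fn1, Sparc, Postn, Tnc, Thbs1, Thbs2, Vcan, Lox, Loxl1 and Loxl2. They were chosen by name, as all probes that carry these symbols in the deposited table, which gave 24 of 56605 probes and 10 of 37017 named genes. The series profiled tumours of an orthotopic pancreatic cancer model, in which tumour grows in the pancreas of female C57BL/6 mice, and asked how ADH-503 changes tumour gene expression. ADH-503 is a small molecule that activates CD11b, an integrin chain carried by neutrophils, monocytes and macrophages. Of 16 arrays, 6 came from animals given vehicle, 5 from animals at 48 h of ADH-503 and 5 from animals at 10 days of ADH-503. All groups share strain, sex and tumour model. The time label of the vehicle animals reads control, so both treated times were set against the same 6 arrays, and the tumour cell line, the ages of the animals and whether each sample was its own animal are not given in the sources used here. P-values therefore measure the spread between these samples, which may be technical. The titles of the treated samples call the compound LA1. The titles of vehicle replicate 2 and 48 h replicate 5 carry the same ID number, but the description of vehicle replicate 2 gives another.

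Fibronectin, encoded by Fn1, is the adhesive glycoprotein on which much of the interstitial matrix is assembled. Matricellular proteins (SPARC, periostin, tenascin-C and the thrombospondins) sit in the matrix but mainly tune how cells attach to it and how collagen fibrils form, and versican, from Vcan, is a large proteoglycan that binds hyaluronan. Lysyl oxidases oxidise lysine residues of collagen and elastin so that the fibres become covalently crosslinked. In pancreatic cancer, activated fibroblasts lay down much of this matrix, and the fibrous stroma they make is a hallmark of the disease.

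The arrays carry 60-base probes, and those shown are ones that the results below rest on. The sequences and their positions on mouse build mm9 are as the array files give them, with no letter marked. The file's interval is longer than the probe for Fn1, Sparc, Tnc, Vcan and Thbs2, as it is for a probe laid across a splice junction.
Fn1 probe A_55_P2743309, mm9 chr1:71694694-71695800 (minus strand): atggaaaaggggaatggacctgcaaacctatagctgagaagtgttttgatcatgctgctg
Sparc probe A_52_P101852, mm9 chr11:55209449-55212106 (minus strand): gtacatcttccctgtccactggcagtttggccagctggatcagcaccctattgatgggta
Tnc probe A_52_P355169, mm9 chr4:63674248-63675011 (minus strand): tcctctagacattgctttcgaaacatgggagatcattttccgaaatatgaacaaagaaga
Vcan probe A_52_P168953, mm9 chr13:89865266-89871120 (minus strand): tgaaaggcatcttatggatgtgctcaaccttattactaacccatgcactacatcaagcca
Thbs2 probe A_51_P461877, mm9 chr17:14804526-14805789 (minus strand): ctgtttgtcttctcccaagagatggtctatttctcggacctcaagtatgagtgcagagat
Loxl1 probe A_51_P304239, mm9 chr9:58138570-58138629 (minus strand): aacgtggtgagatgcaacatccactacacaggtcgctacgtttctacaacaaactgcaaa
Loxl2 probe A_55_P2131348, mm9 chr14:70090017-70090076 (plus strand): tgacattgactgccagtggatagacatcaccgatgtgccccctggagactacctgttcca
These are the probes used for Fn1, Vcan, Thbs2, Loxl1 and Loxl2. The Sparc and Tnc probes shown are a further probe of each gene, whose values are set beside the one used. Exon and UTR annotation on mm9 was not used here.

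Values below are log2 signal relative to the 75th percentile of the same array, so a difference of 1 is a doubling, and levels of different probes are not compared. Between pairs of arrays r across genes was 0.942 to 0.976, and the share of probes well above background was 74.9% to 81.2%. For vehicle replicate 2 and 48 h replicate 5, whose titles share an ID number, this r was 0.949, with 5 of 120 pairs of arrays lower. All 10 markers of ductal and tumour epithelium and 12 of 13 fibroblast markers were well above background on at least 5 arrays. At 48 h 8 of 11 acinar cell markers were higher than in vehicle at an unadjusted p under 0.05 in limma, with a median log2 fold change of 1.1 and none past the adjusted threshold. Their mean level ran from 0.27 to 1.89 in vehicle, from 1.86 to 2.35 at 48 h and from -0.06 to 2.25 at 10 days. All 9 macrophage markers were higher than in vehicle at both times, with median log2 fold changes of 0.14 at 48 h and 0.07 at 10 days, and none passed. At 10 days all 10 epithelial markers were lower than vehicle (median -0.57; mean level -1.37 to 0.62, against -0.46 to 1.60 in vehicle), as were all 9 granulocyte markers (median -0.77) and all 8 erythroid markers (median -1.32), with 0 of these past the adjusted threshold in limma and 0, 3 and 3 with an unadjusted p below 0.05. At 48 h all 8 erythroid markers were lower too (median -0.75), 3 of them with an unadjusted p below 0.05 in limma. So were 8 of 9 granulocyte markers (median -0.33), while 6 of 10 epithelial markers were higher. None of these passed the adjusted threshold. Vehicle replicate 3 had the highest mean erythroid level, -0.05, with the next vehicle array at -1.61. The part of these cell type shifts in the members' values was not tested.

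None of the 10 genes differed between the groups past an adjusted p of 0.05. Of the 9 that were well above background on at least 5 arrays and were tested, 0 were called at 48 h, 0 at 10 days and 0 between the treated times, and limma called 0% of all 30586 genes in each comparison. At an unadjusted p under 0.05, 0 of 9 members passed at 48 h, where 2.56% of all genes did. Tenascin-C (Tnc) alone passed at 10 days, 1 of 9 members where 3.53% of all genes did, and 0 of 9 passed between 10 days and 48 h, where 3.47% did. With all arrays, 7 of 9 members were lower than vehicle at 48 h and 8 of 9 at 10 days. The members' median log2 fold change was -0.23 at 48 h and -0.15 at 10 days, against -0.01 over all genes tested at each time. Single arrays moved these counts and medians in both directions. Without vehicle replicate 2, 6 of 9 members were lower at 48 h (median -0.07) and 5 of 9 at 10 days (median -0.02). Without 10 days replicate 5, 5 of 9 were lower at 10 days (median -0.05), and without 48 h replicate 2 or 4 the 48 h median was -0.09 or -0.10. Without vehicle replicate 3 or 4, in contrast, 9 of 9 members were lower at 48 h (median -0.28 or -0.15). Without 48 h replicate 3 the 48 h median was -0.35, and without vehicle replicate 6 the 10 day median was -0.33. With slide as a block the 10 day median was -0.43, and with normexp the 48 h median was -0.08. No member had 2 groups that did not overlap, but overlap was not counted over all genes, so this has no reference.

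**Figure D1:**
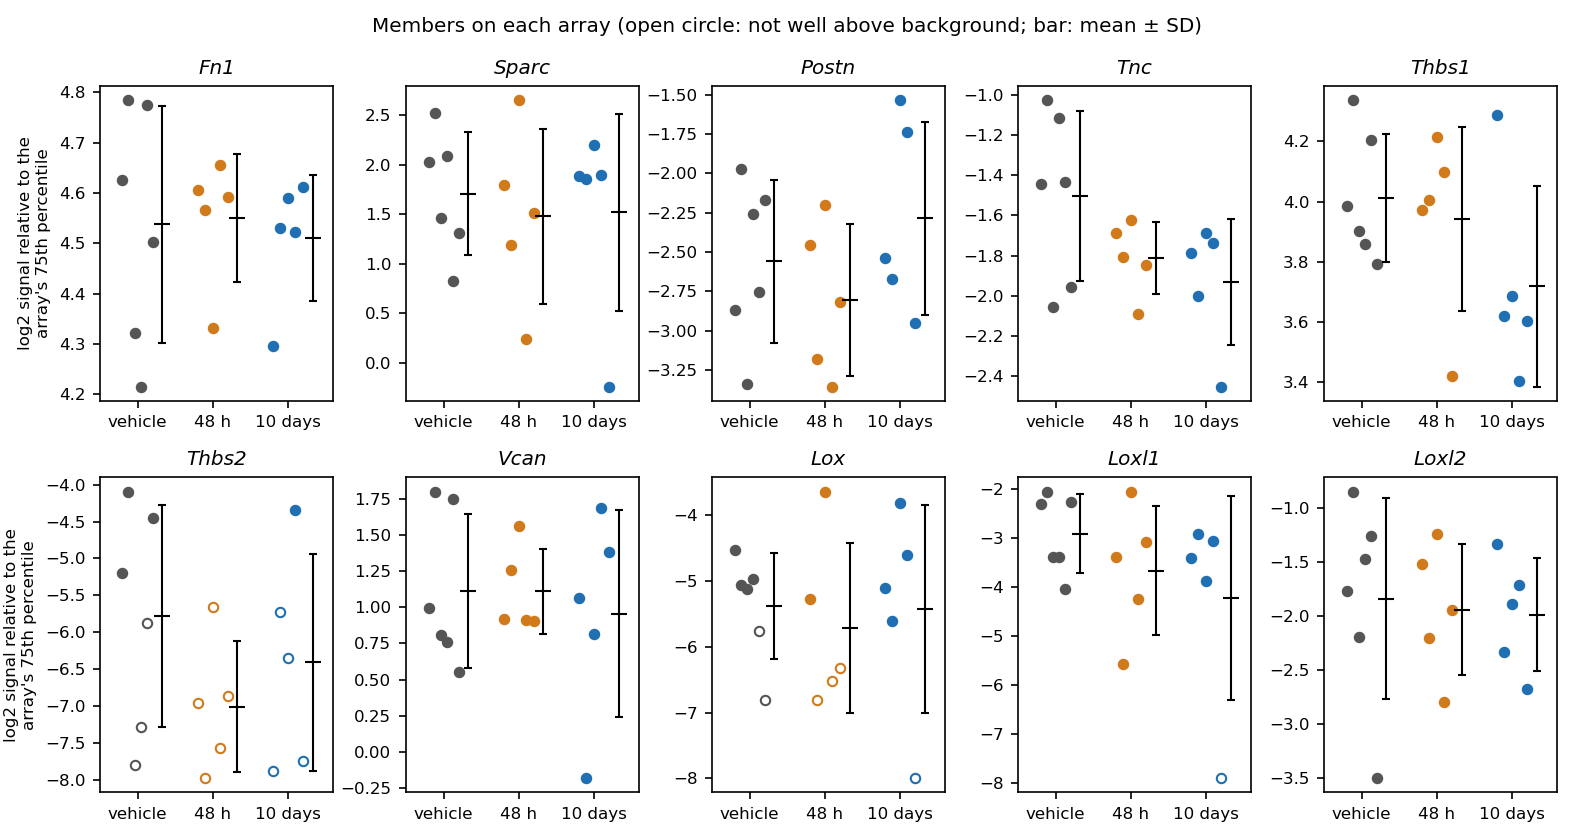
Each panel plots 1 gene, with log2 signal relative to the array's 75th percentile on its own vertical scale and the 3 groups on the horizontal axis; points are arrays, open where the probe was not well above background, and bars are the mean ± SD (n = 6, 5 and 5). The groups overlap in every panel, and Sparc, Lox and Loxl1 each have their lowest point at 10 days, on replicate 5.

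Fn1 was the steadiest of the members. In vehicle it ran from 4.22 through a median of 4.56 to 4.78. The 48 h arrays gave 4.61, 4.57, 4.33, 4.65 and 4.59, and the 10 day arrays gave 4.30, 4.53, 4.59, 4.52 and 4.61. All treated values lay inside the vehicle range. Its log2 fold change was 0.01 ± 0.12 (SE) at 48 h and -0.03 ± 0.12 at 10 days, each with an adjusted p of 1.0 in limma. The 95% confidence interval at 48 h, -0.24 to 0.27, corresponds to 0.846 to 1.20 times the vehicle level. Over the 16 arrays the SD of Fn1 was 0.16, below that of most genes (percentile 9.71 of the genes tested, median SD 0.32), and its highest array was 1.48 times its lowest.

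Fn1 carries 4 probes, and they did not all follow each other. The probe used and A_51_P100856, both placed on intervals longer than the probe itself, varied together over the 16 arrays (r = 0.769, rho = 0.726, permutation p = 0.00032 for r, adjusted p = 0.00117 over 22 probe pairs). Without the 2 arrays farthest from the median, r was 0.57. Probe A_55_P2130178, at mm9 chr1:71632116-71632175, did not follow either of them (r = 0.180 with the probe used and 0.172 with A_51_P100856, permutation adjusted p = 0.696 for each), with log2 fold changes of -0.15 at 48 h and -0.12 at 10 days. Probe A_52_P237357, at mm9 chr1:71650690-71650749, ran from 0.67 to 2.71, and its correlation with the probe used was r = -0.165 (permutation adjusted p = 0.702). On 10 days replicate 4 that probe was at its lowest value, 0.67, while the probe used, at 4.52, was near its own vehicle median of 4.56. Its log2 fold changes, 0.16 at 48 h and -0.22 at 10 days, had adjusted p of 1.0 in limma.

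SPARC binds collagen and is needed for orderly fibril assembly, and its message varied widely from tumour to tumour. In vehicle Sparc ran from 0.83 through a median of 1.75 to 2.53. At 48 h the values were 1.80, 1.19, 2.65, 0.24 and 1.52. At 10 days they were 1.89, 1.86, 2.20, 1.89 and -0.24. The highest array (48 h replicate 3) and the lowest (10 days replicate 5) were both from treated animals and differed 7.43-fold, and the SD over 16 arrays, 0.78, was at percentile 87.3 of the genes tested. The log2 fold change was -0.23 ± 0.47 at 48 h (95% interval -1.24 to 0.78) and -0.19 ± 0.47 at 10 days (-1.20 to 0.82), with adjusted p of 1.0 in limma and exact permutation p of 0.621 and 0.740. These intervals span 0.424 to 1.71 times vehicle at 48 h, so a doubling is outside the interval and a halving is inside it. Without 10 days replicate 5, the 10 day value turned to 0.25, and without 48 h replicate 4 the 48 h value turned to 0.08.

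The Sparc probe printed above, A_52_P101852, varied closely with the probe used (r = 0.936, rho = 0.926, permutation adjusted p = 7.3e-05 over 22 probe pairs; r = 0.903 without the 2 farthest arrays). The order was not identical. Array 10 days replicate 2 was above the vehicle median on the probe used (1.86 against 1.75) but below it on A_52_P101852 (-0.36 against 0.27). The remaining Sparc probe, A_55_P2713955, at mm9 chr11:55222956-55223015, stayed between 0.44 and 1.06 on all arrays and did not follow it (r = -0.085, permutation adjusted p = 0.790). In the plot of probe deviations, the Sparc lines of these 2 correlated probes both drop on 48 h replicate 4 and 10 days replicate 5.

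Periostin, from Postn, binds collagen and integrins and is secreted by activated fibroblasts. In vehicle it ran from -3.34 through a median of -2.50 to -1.97. The 48 h values were -2.45, -3.18, -2.20, -3.35 and -2.82, and the 10 day values were -2.53, -2.67, -1.54, -1.74 and -2.95. The highest arrays were 10 days replicates 3 and 4, and the other 3 arrays of that group lay within the vehicle range. Its log2 fold change was -0.24 ± 0.31 at 48 h, 0.27 ± 0.31 at 10 days and 0.52 ± 0.32 between the treated times, with adjusted p of 1.0 in limma for each and an exact permutation p of 0.183 for the last. Postn was thus the only member tested whose mean was above vehicle at 10 days, where the mean over its 4 probes instead gave -0.14. The probes A_51_P489192 and A_55_P2503766 were well above background on 11 and 8 arrays, and A_55_P2716356 on 0.

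Tenascin-C, from Tnc, is a large glycoprotein that weakens cell attachment to fibronectin and is little made in resting adult tissue. It showed the smallest p of the members. In vehicle Tnc ran from -2.05 through a median of -1.44 to -1.03. At 48 h the values were -1.69, -1.80, -1.62, -2.09 and -1.85. At 10 days they were -1.79, -2.0, -1.69, -1.74 and -2.45. All 5 arrays of each treated group were below the vehicle mean of -1.51, but vehicle replicates 3 and 6 (-2.05 and -1.95) lay among the treated values. The log2 fold change was -0.30 ± 0.20 at 48 h (95% interval -0.72 to 0.11) and -0.43 ± 0.20 at 10 days (-0.84 to -0.01). At 10 days the unadjusted p was 0.0458 in limma, the adjusted p was 1.0 and the exact permutation p was 0.102. With slide as a block the 10 day value was -0.49. Within slides it was -0.38 on slide 1, which held 1 vehicle array, and -0.58 on slide 2. Without vehicle replicate 2, the highest array, it was -0.33.

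The second Tnc probe, A_52_P355169, printed above, moved the same way but over a far wider range. It ran from -3.83 to -0.21 in vehicle, from -7.56 to -1.37 at 48 h and from -4.80 to -1.42 at 10 days, with 48 h replicate 4 not well above background. Its log2 fold change was -1.83 ± 0.96 at 48 h and -1.11 ± 0.96 at 10 days, with adjusted p of 1.0 in limma. The probes correlated at r = 0.698 (permutation adjusted p = 0.00708 over 22 probe pairs). The order of the treated groups differed between them: the mean over both probes gave 0.30 for 10 days against 48 h, where the probe used gave -0.12.

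**Figure D2:**
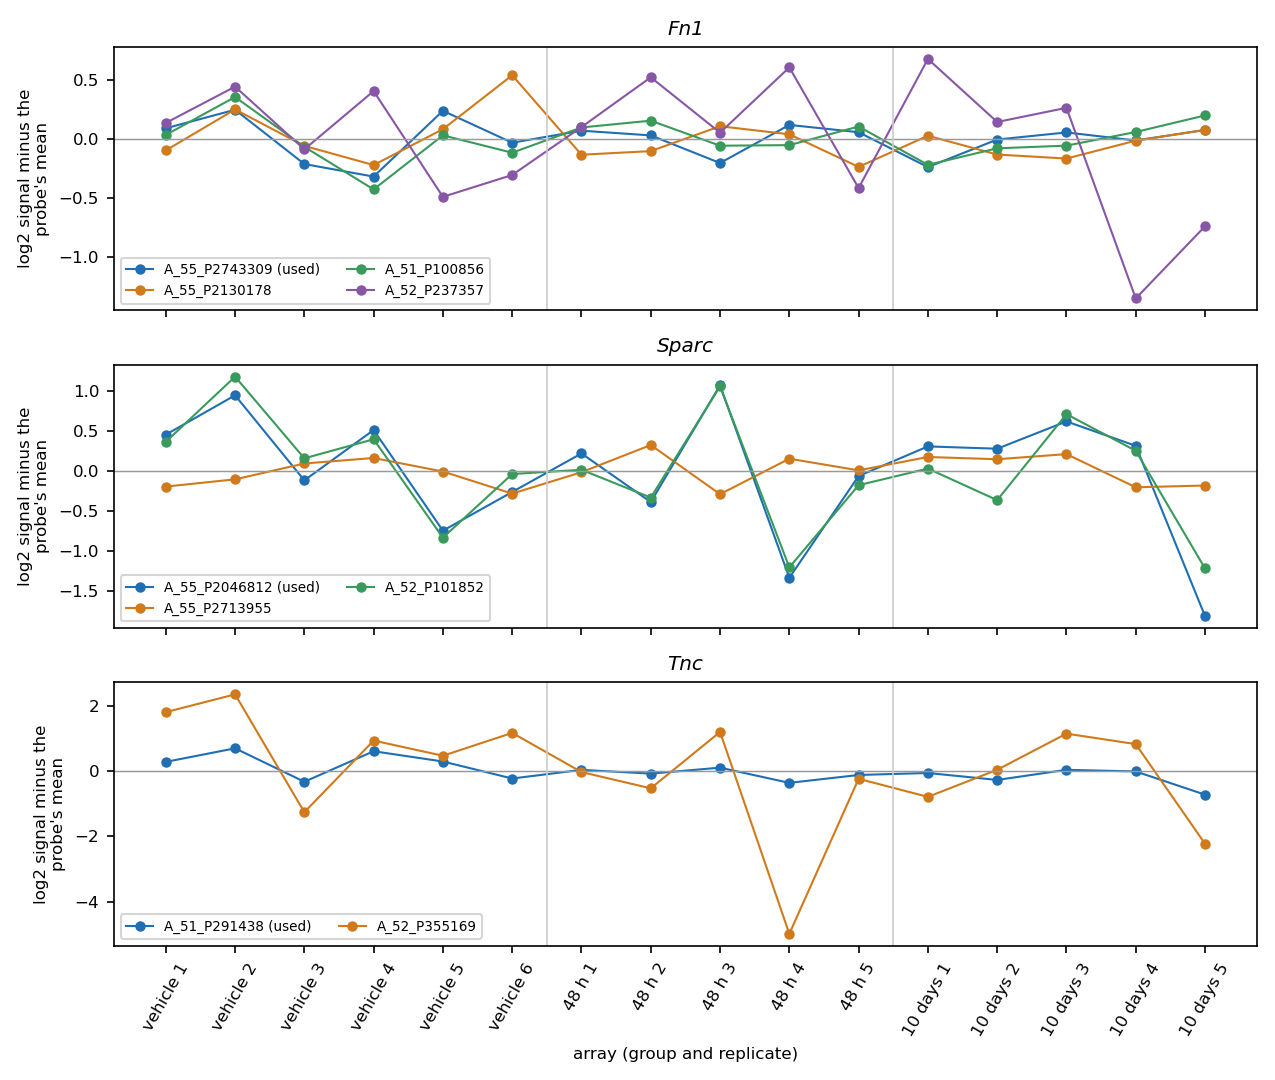
Each line is 1 probe, plotted as log2 signal minus that probe's mean over the 16 arrays (vertical axis) for each array in group order (horizontal axis), for Fn1, Sparc and Tnc. Probes A_52_P237357 and A_55_P2130178 of Fn1 and probe A_55_P2713955 of Sparc do not follow the probe used for their gene, and the second Tnc probe spans -7.56 to -0.21 before centring.

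Thrombospondin-1, from Thbs1, is released by platelets and stromal cells, activates latent TGF-beta and inhibits vessel growth. In vehicle Thbs1 ran from 3.79 through a median of 3.94 to 4.34. At 48 h it was 3.97, 4.0, 4.22, 4.10 and 3.42, and at 10 days 4.29, 3.62, 3.69, 3.40 and 3.60. At 10 days 4 of 5 arrays were below the lowest vehicle array, and replicate 1 was near the top of the vehicle range. The log2 fold change was -0.07 ± 0.17 at 48 h and -0.29 ± 0.17 at 10 days (95% interval -0.66 to 0.07), with an adjusted p of 1.0 in limma and an exact permutation p of 0.113 at 10 days. With slide as a block the 10 day value was -0.43 (unadjusted p = 0.0213 in limma, adjusted p = 1.0). Within slides it was -0.12 on slide 1, which held 1 vehicle array, and -0.52 on slide 2. The other Thbs1 probe gave -0.10 at 48 h and -0.41 at 10 days.

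Thrombospondin-2, from Thbs2, binds matrix metalloproteinases and limits collagen fibril thickness. Its probe, printed above, was well above background on 4 of 16 arrays and was not tested. Those arrays were vehicle replicates 1, 2 and 6, at -5.19, -4.10 and -4.45, and 10 days replicate 4, at -4.34. All 5 arrays at 48 h were not well above background, with a measured mean of -7.01 against -5.78 in vehicle. Set against the lowest signal that was well above background on each 48 h array, or the probe's own where higher, the vehicle mean was higher by 0.01 on the log2 scale, so the arrays bound no difference between these groups.

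Versican was level in mean and variable between tumours. In vehicle Vcan ran from 0.55 through a median of 0.90 to 1.80. At 48 h it was 0.92, 1.26, 1.56, 0.91 and 0.90, all within the vehicle range. At 10 days it was 1.07, -0.18, 0.81, 1.69 and 1.38, with replicate 2 the lowest of the 16 arrays. The log2 fold change was 0.00 ± 0.31 at 48 h and -0.15 ± 0.31 at 10 days, both with an adjusted p of 1.0 in limma, and the 48 h interval spans 0.632 to 1.59 times vehicle. The 3 Vcan probes ordered the tumours alike, with r of 0.925, 0.887 and 0.903 between them over 16 arrays and permutation adjusted p of 7.3e-05, 7.3e-05 and 0.00011. The sign of the small 48 h value turned with quantile normalization (-0.01), with normexp (-0.04) and with the mean over probes (-0.15).

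Among the crosslinking enzymes, Lox encodes the founding lysyl oxidase of fibrillar collagen. Its better probe was well above background on 10 of 16 arrays. In vehicle those were replicates 1 to 4, at -4.53, -5.06, -5.13 and -4.97. At 48 h they were replicates 1 and 3, at -5.27 and -3.64, and at 10 days replicates 1 to 4, at -5.10, -5.61, -3.81 and -4.60. With dim arrays kept at their measured values, the log2 fold change was -0.33 ± 0.70 at 48 h and -0.05 ± 0.70 at 10 days (adjusted p of 1.0 in limma). Both signs turned with normexp, to 0.06 and 0.21, and without 10 days replicate 5 the 10 day value was 0.60. The second Lox probe was well above background on 3 arrays.

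Loxl1, whose product acts chiefly in elastic fibres, had the largest mean difference of the members and the widest spread. In vehicle it ran from -4.04 through a median of -2.84 to -2.06. At 48 h the values were -3.38, -5.56, -2.05, -4.24 and -3.08. At 10 days replicates 1 to 4 gave -3.40, -2.92, -3.88 and -3.06, and replicate 5, at -7.90, was not well above background. All 5 arrays at 10 days were below the vehicle mean of -2.91, and 4 of them were inside the vehicle range. The log2 fold change was -0.76 ± 0.82 at 48 h and -1.32 ± 0.82 at 10 days (95% interval -3.08 to 0.43; adjusted p of 1.0 in limma, exact permutation p = 0.134). Without replicate 5 the 10 day value was -0.41. With slide as a block it was -1.71.

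Loxl2 encodes a lysyl oxidase that acts on basement membrane collagen as well. In vehicle it ran from -3.50 through a median of -1.62 to -0.85, so vehicle held both the highest and the lowest of the 16 arrays. At 48 h it was -1.52, -2.20, -1.23, -2.80 and -1.94, and at 10 days -1.33, -2.33, -1.89, -1.71 and -2.67. The log2 fold change was -0.10 ± 0.42 at 48 h and -0.15 ± 0.42 at 10 days, with adjusted p of 1.0 in limma. Its second probe gave 0.03 and -0.02, and the probes correlated at r = 0.626 (permutation adjusted p = 0.0178 over 22 probe pairs).

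**Figure D3:**
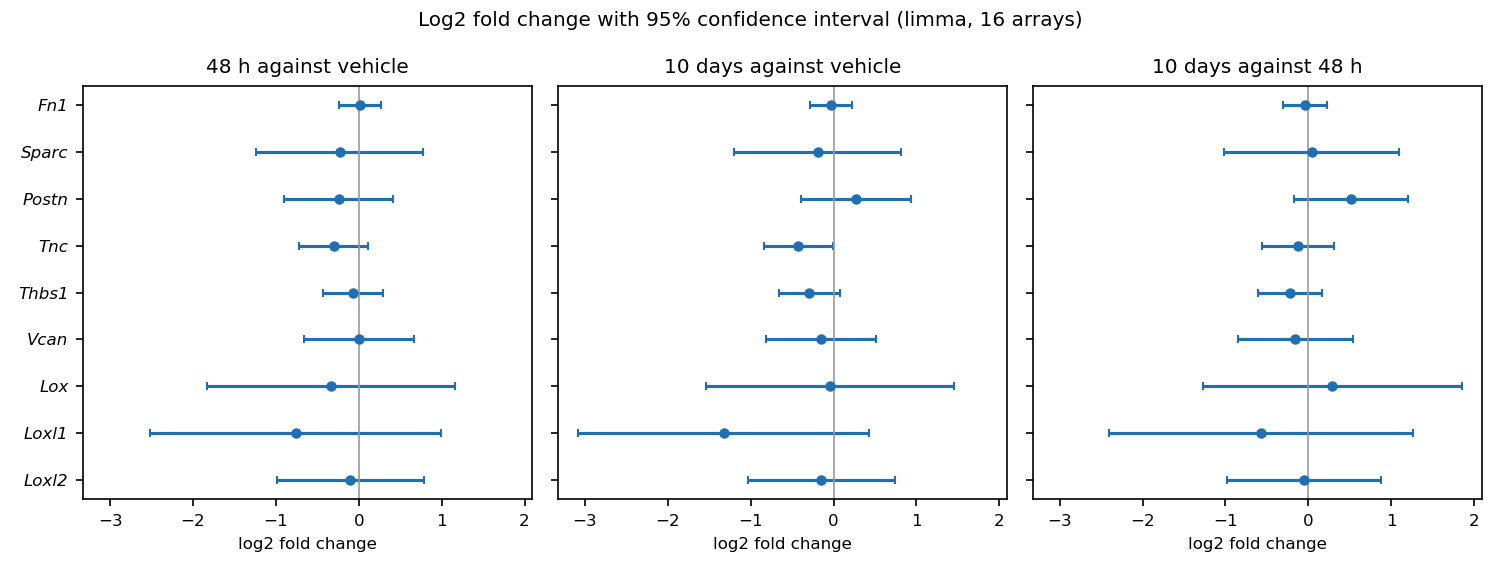
Points are log2 fold changes (horizontal axis) of the 9 members tested (vertical axis) in the 3 comparisons, and bars are 95% confidence intervals from limma over 16 arrays. Intervals run from narrow for Fn1 to wide for Lox and Loxl1, and only that of Tnc at 10 days, -0.84 to -0.01, leaves out 0.

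Slide, which was unevenly spread over the groups, moved several of these values. With slide as a block the log2 fold change of Sparc was -0.61 at 48 h and -0.45 at 10 days, that of Lox -1.05 and -0.54, and that of Loxl1 at 48 h -1.32. Within slides 1 and 2, Sparc at 48 h was -0.56 and -0.13, and Loxl1 at 10 days was -1.10 and -2.45. Slide 1 held 1 vehicle array and slide 2 held 1 array from 48 h. Within-slide values at 48 h, and on slide 1 at 10 days, therefore rest on 1 array on 1 side. On slide 2 the 10 day group had 2 arrays, and on 1 of them, replicate 5, Loxl1 was not well above background. Thbs1 at 48 h was -0.28 with the block, and 0.09 and -0.60 within slides. Vcan was 0.24 at 48 h and turned to 0.01 at 10 days. No adjusted p of a member fell below the threshold with the block in limma.

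A few arrays held the extremes of many members. Vehicle replicate 2 was the highest of the 16 arrays for 6 of 10 members (Fn1, Tnc, Thbs1, Thbs2, Vcan and Loxl2) and was among the upper 4 for 9 of 10. The array at 10 days that stood lowest, replicate 5, was the lowest of 16 for Sparc, Tnc, Lox and Loxl1 and among the lower 4 for 8 of 10. At 48 h, replicate 3 was the highest of 16 for Sparc, Lox and Loxl1, and replicate 4 was among the lower 4 for 6 of 10. Vehicle replicate 2 is also 1 of the 2 arrays whose titles share an ID number, and 10 days replicate 5 had the smallest share of probes above background, 74.9%. In bulk tumour RNA, fewer cells of a type and less RNA per cell cannot be told apart.

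Across the 16 arrays, 36 of the 45 pairs of members had a positive correlation, with a median r of 0.34. For 8 pairs the permutation p of r, adjusted over the 45, was under 0.05, and for 7 of these that of rho was too. Sparc was in 4 of the 8 pairs: with Lox (r = 0.849, rho = 0.903, adjusted p = 0.00135), Loxl1 (r = 0.784, rho = 0.641, adjusted p = 0.0136), Tnc (r = 0.680, rho = 0.694, adjusted p = 0.0378) and Postn (r = 0.631, rho = 0.700, adjusted p = 0.0446), all by permutation. With the 2 arrays farthest from the median left out, these r were 0.765, 0.578, 0.421 and 0.567. On the first slide alone, r was 0.864, 0.670, 0.706 and 0.764. The second slide gave 0.830, 0.868, 0.768 and 0.586.

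The relation of Sparc and Lox rests in part on arrays where Lox was dim. Over the 10 arrays with both genes well above background, r was 0.599 and rho 0.794 (permutation p = 0.0650 for r). Sparc and Loxl1 gave r = 0.610 over the 15 such arrays, which leave out 10 days replicate 5. Lox passed the threshold with Loxl1 (r = 0.661, rho = 0.465) and Loxl2 (r = 0.645, rho = 0.668) over 16 arrays, but over the 10 arrays above background these r were 0.160 and 0.205. With normexp the r of Lox was 0.569 with Sparc, 0.346 with Loxl1 and 0.329 with Loxl2. With quantile normalization these r were 0.827, 0.687 and 0.517. Thbs2 and Loxl1 (r = 0.627, rho = 0.779) were both above background on 4 arrays, too few to check.

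The other pair was Tnc and Loxl2, well above background on all arrays (r = 0.747, rho = 0.847, permutation adjusted p = 0.0136). Their r was 0.658 without the 2 farthest arrays, 0.723 on slide 1 and 0.778 on slide 2, and 0.824 after group means were removed. Fn1 stood apart from this pattern, with r of -0.309 with Sparc and -0.296 with Lox (adjusted p of 0.407 and 0.414 by permutation). Vcan and Thbs1 had no partner among the members at the threshold either. Vcan had its highest r with Loxl2 (0.523, adjusted p = 0.123 by permutation).

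**Figure D4:**
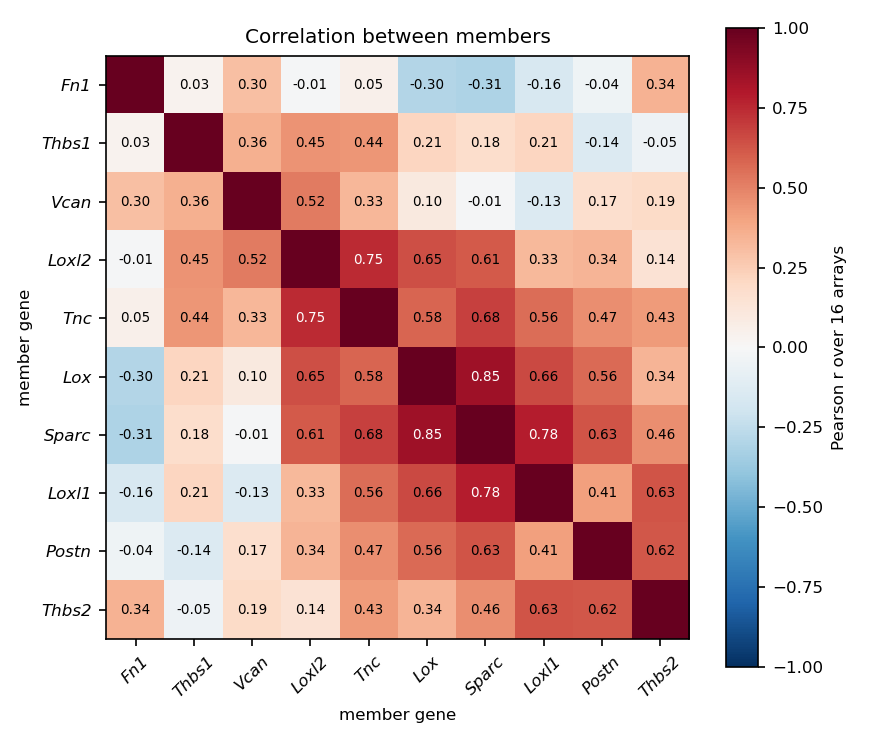
The colour and number in each cell give Pearson's r over the 16 arrays for a pair of members, with the genes on both axes in the same order. The cells among Loxl2, Tnc, Lox, Sparc, Loxl1 and Postn are all positive, from 0.327 to 0.849, and the row of Fn1 runs from -0.309 to 0.344.

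Of 130 relations between a member and the mean of a cell type's markers, 11 had an adjusted permutation p of r under 0.05, and 3 of these also of rho. Sparc followed the fibroblast markers (r = 0.846, rho = 0.876, adjusted p = 0.0013 by permutation; 0.877 on slide 1, 0.843 on slide 2 and 0.742 without the 2 farthest arrays). Lox did so too (r = 0.800, rho = 0.785, adjusted p = 0.0121 by permutation; 0.811 and 0.816 within slides), but over the 10 arrays on which Lox was well above background r was 0.428 and rho 0.467 (permutation p = 0.220 for r). Sparc also followed the 4 mesothelial markers tested (r = 0.773, rho = 0.785, adjusted p = 0.0169 by permutation), with r = 0.642 without 10 days replicate 5. By r alone, Sparc also passed with epithelial markers (0.727), and Tnc with endothelial (0.807), pericyte and smooth muscle (0.758) and macrophage markers (-0.696). So did Lox with mesothelial (0.708), Loxl1 with fibroblast (0.663) and mesothelial (0.739), and Loxl2 with pericyte and smooth muscle markers (0.747). On slide 1 these r of Tnc were 0.388, 0.228 and -0.350, and on slide 2 they were 0.932, 0.860 and -0.841. That of Loxl2 was 0.225 on slide 1 and 0.906 on slide 2, and the rest were 0.652 to 0.830 within slides. Without the 2 farthest arrays, the positive r ran from 0.347 (Loxl1 with mesothelial) to 0.689 (Tnc with endothelial). For Fn1, Thbs1 and Vcan the r with fibroblast markers was -0.385, 0.250 and -0.059. The fibroblast list itself ran from -2.02 to -1.40 in vehicle, from -2.57 to -1.26 at 48 h and from -2.55 to -1.49 at 10 days. At 48 h 4 of 5 arrays (-2.29, -2.27, -2.57 and -2.34) were below the lowest vehicle array, and replicate 3 was above all vehicle arrays. The group means were -2.15 at 48 h and -1.67 in vehicle, but of the 12 markers tested 8 were lower and 4 higher (median log2 fold change -0.09). Of the lower ones 2 had an unadjusted p below 0.05, and 0 passed the adjusted threshold in limma. At 48 h 7 of 8 endothelial markers were below vehicle (median -0.59), 1 with an unadjusted p below 0.05 and 0 past the adjusted threshold in limma. The endothelial mean level was -3.55 to -2.78 at 48 h against -2.97 to -2.08 in vehicle. The part of the fibroblast and endothelial markers in the members' lower values was not tested.

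**Figure D5:**
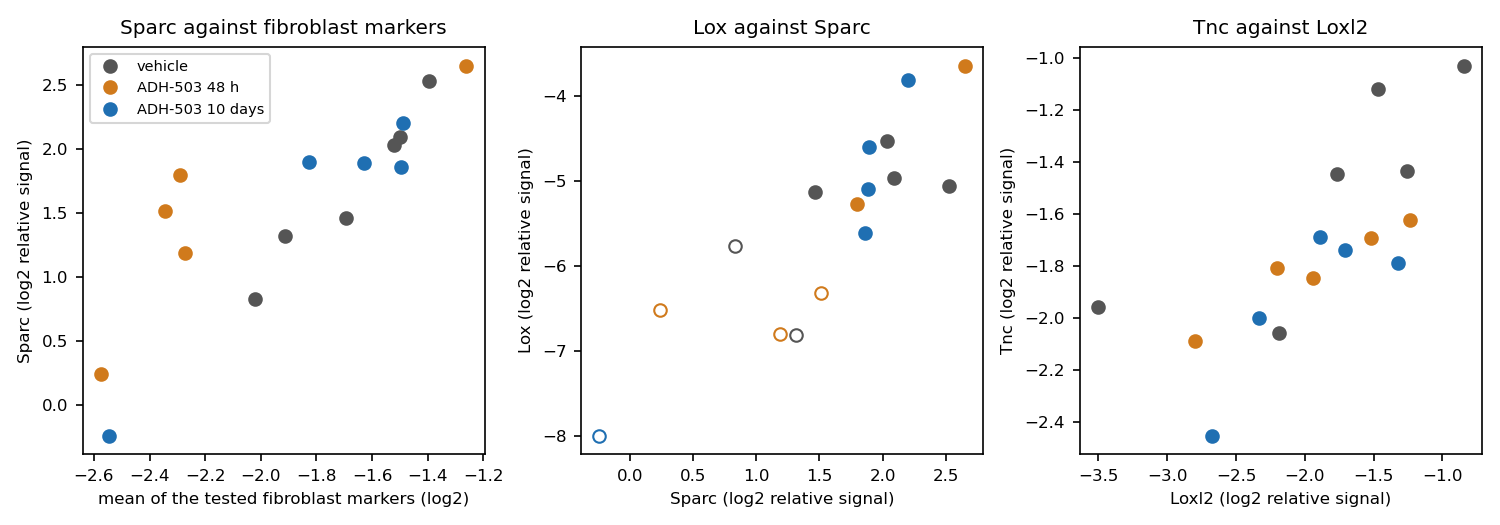
Points are arrays coloured by group, open where a member on either axis was not well above background, and both axes are log2 relative signal. The panels show Sparc against the mean of the tested fibroblast markers (r = 0.846), Lox against Sparc (r = 0.849 over 16 arrays and 0.599 over the 10 above background) and Tnc against Loxl2 (r = 0.747).

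Among 30528 genes compared over the 16 arrays, the gene most like Sparc was Col1a2, which encodes a chain of type I collagen (r = 0.926), followed by Parva (r = 0.924). Lox was most like Col1a1 (r = 0.908) and Col3a1 (r = 0.907). Col1a1 was at rank 9 for Sparc, and Sparc was at rank 7 for Lox. Thbs1 was most like Lif, a cytokine (r = 0.910), and Hilpda, a lipid droplet protein (r = 0.888). The closest genes to the others were Eef2 for Fn1 (r = 0.821), Fignl1 for Postn (0.794), Zc3h12c for Tnc (0.868), Lce1a1 for Thbs2 (0.819), Tspan10 for Vcan (0.858), Nnmt for Loxl1 (0.860) and Cxcl17 for Loxl2 (0.879). Genes most like a member were picked from those with a RefSeq symbol that were not members themselves, while the ranks count all genes compared. These values were picked as the highest of many, so no test was made of them, and Thbs2, Lox, Loxl1, Tspan10 and Cxcl17 were not well above background on every array.

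The members' neighbours in the matrix also gave no call. Of 16 collagens tested 0 passed in any comparison, with 13 lower than vehicle at 48 h (median log2 fold change -0.25) and 13 lower at 10 days (-0.19). The largest collagen difference among those named by rule was that of Col8a1 at 48 h, -1.68 ± 0.90 (adjusted p of 1.0 in limma). Among 16 other enzymes of collagen processing and crosslinking, 10 were lower at 48 h and 11 at 10 days, and among 20 other matricellular genes 9 and 16 were lower, with 0 past the threshold in either list. Of 15 receptors of these proteins 0 passed, with medians of 0.05 at 48 h and -0.12 at 10 days.

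In the versican and hyaluronan network, 9 of 11 tested genes were lower at 10 days (median -0.28) and 0 passed. Has1, a hyaluronan synthase, had an unadjusted p of 0.0285 at 48 h in limma, with a log2 fold change of -0.76 ± 0.31 and an adjusted p of 1.0. Of 15 genes of TGF-beta signalling, which induces many matrix genes, 0 passed and the medians were -0.01 at 48 h and -0.04 at 10 days. Tgfb2, a ligand, was the one with the smallest p, at 1.16 ± 0.43 at 48 h (unadjusted p = 0.0171, adjusted p = 1.0 in limma).

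The 250 bases before the start sites of Sparc and Postn are shown, from RefSeq on build GRCm38.p6. Whether these sequences bear on how the genes varied was not tested. Capitals mark matches, on either strand, to TGANTCA (the AP-1 motif), CATTCC (TEAD), CAGACA (SMAD) or TATAAA (the TATA box).
Sparc, GRCm38.p6 chr11:55420081-55420330 (minus strand): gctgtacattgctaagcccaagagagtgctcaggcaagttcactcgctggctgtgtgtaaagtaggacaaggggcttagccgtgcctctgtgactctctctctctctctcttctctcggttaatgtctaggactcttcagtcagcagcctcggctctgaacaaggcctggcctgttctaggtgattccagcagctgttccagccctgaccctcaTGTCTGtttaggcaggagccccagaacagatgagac
Postn, upstream start, GRCm38.p6 chr3:54359017-54359266 (plus strand): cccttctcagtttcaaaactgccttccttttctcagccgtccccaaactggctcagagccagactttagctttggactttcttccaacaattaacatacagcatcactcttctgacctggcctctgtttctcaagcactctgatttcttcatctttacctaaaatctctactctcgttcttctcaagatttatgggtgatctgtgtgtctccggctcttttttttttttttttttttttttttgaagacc
Postn, downstream start, GRCm38.p6 chr3:54360857-54361106 (plus strand): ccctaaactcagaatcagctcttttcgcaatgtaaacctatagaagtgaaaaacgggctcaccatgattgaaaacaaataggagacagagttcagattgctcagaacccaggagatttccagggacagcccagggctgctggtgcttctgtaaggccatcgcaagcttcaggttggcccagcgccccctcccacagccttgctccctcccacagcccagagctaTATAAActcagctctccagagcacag
Promoters were held for 5 of the 10 members, with 7 start sites. The letters CAGACA were found in the window of Sparc, 36 bases before the start, at 1 of the 2 Tnc starts and in Thbs2, against 17.1% of all 32851 promoter windows. TATAAA lay 26 bases before the downstream Postn start and also in the Tnc and Thbs2 windows, against 12.4% of all. TGANTCA (6.7% of all) and CATTCC (12.6% of all) were found in none of the 7. A match to letters is a description of sequence and not a binding site.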

How the data were processed

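RNA from 16 tumour samples was measured on 1-colour Agilent mouse 8x60K arrays, with cDNA labelled with Cy5, per the labels' protocols. The submitters' processing notes name Agilent Feature Extraction 11.5.1.1 for quantification. Per the file headers, the processed signals are linear intensity values after background correction, with surrogates where a spot was dim. The authors also deposited a log2 table of the same 56605 probes, which is quantile-normalized: its sorted columns differ by at most 0.0043.

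The log2 processed signal was averaged over the spots of a probe without outlier spots, and the 75th percentile of the array (a signal of 4953 to 6736) was subtracted. Names came from RefSeq genes of assembly GRCm38.p6 by accession for 32994 probes and by symbol for 10733, and 12878 kept the files' name. Each gene took its probe with the highest mean, and 30586 of 37017 genes, well above background on at least 5 arrays, entered the fit in R 4.3.3 with limma 3.58.1 (3 groups in 1 model, robust eBayes, Benjamini-Hochberg, 2-sided). Beside it stand exact 2-sided permutation tests per member, which can reach p = 0.00216 against vehicle and 0.00794 between treated groups, and 100000 permutations for correlations. The fit was tested on simulated data. Array number limits the precision. Slide 1 held 1 vehicle array, 4 from 48 h and 3 from 10 days, and slide 2 held 5, 1 and 2. No spot was saturated.

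All members are named. Other genes named are drawn from the 3 with the smallest p in each related list and the 2 most like each member. Not all of these are printed, and cell type markers are given only as lists. The members and lists were chosen with earlier results of these data known. Alternatives were other normalizations and filters, slide as a block, the mean over probes and leaving out arrays. Single probes, cell type relations, arrays above background, array ranks and promoters were added after the data were seen.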

Additional observations from a re-analysis of the deposited data

Results flagged for a closer look

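In 4 of 30 groups of a member's values, 1 array lay far from the others of its group, where chance alone picks about 5% of such groups. Fn1 was 4.331 on 48 h replicate 3, against 4.566 to 4.655 on the other 4 arrays of that group. Fn1 was 4.296 on 10 days replicate 1, against 4.522 to 4.612 on the others. Sparc was -0.241 on 10 days replicate 5, against 1.858 to 2.201 on the others. Loxl1 was -7.898 on the same array, where its probe was not well above background, against -3.877 to -2.922 on the others.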

How the results depend on the processing

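No member passed the adjusted threshold under any of the alternatives run, and the lowest adjusted p of a member was 0.933 (limma). The number of genes called over the whole array was 0 to 1 in each comparison when arrays were left out in turn, and 1 without a filter on dim probes at 48 h and at 10 days. None of those genes was a member. Several small fold changes changed sign. With the deposited quantile values Fn1 was -0.030 and Vcan -0.0081 at 48 h, and Fn1 0.016 at 10 days against 48 h. With normexp Fn1 was -0.035, Vcan -0.039 and Lox 0.063 at 48 h, Lox 0.21 at 10 days, and Fn1 0.021 between the treated times. With the mean over probes Vcan was -0.15 at 48 h, Postn -0.14 at 10 days, and Tnc 0.30 between the treated times. With slide as a block Vcan was 0.0084 at 10 days. Without both arrays of 1 ID number, Thbs1 was 0.12 and Loxl2 0.10 at 48 h, and Fn1 0.022, Lox 0.016 and Loxl2 0.052 at 10 days. The cause was not tested.

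With arrays left out in turn, the members' median ran from -0.35 to -0.07 at 48 h and from -0.33 to -0.02 at 10 days. The ranges that crossed 0 at 48 h were -0.11 to 0.14 for Vcan, -0.43 to 0.115 for Loxl2, -0.052 to 0.067 for Fn1, -0.52 to 0.079 for Sparc and -0.14 to 0.059 for Thbs1. At 10 days they were -0.45 to 0.60 for Lox, -0.092 to 0.026 for Fn1, -0.48 to 0.052 for Loxl2, -0.34 to 0.13 for Vcan and -0.37 to 0.25 for Sparc. Between the treated times they were -0.26 to 0.13 for Loxl2, -0.27 to 0.48 for Sparc, -0.094 to 0.014 for Fn1, -0.34 to 0.13 for Vcan, -0.12 to 0.93 for Lox, -0.19 to 0.0075 for Tnc and -1.04 to 0.35 for Loxl1. Other values kept their sign but moved: at 48 h Lox from -0.85 (without 48 h replicate 3) to -0.061 (without replicate 2), Loxl1 from -1.16 to -0.28 (the same arrays), Postn from -0.40 (without vehicle replicate 3) to -0.10 (without 48 h replicate 4) and Tnc from -0.41 to -0.21. At 10 days Postn ran from 0.085 (without 10 days replicate 3) to 0.44, Tnc from -0.54 to -0.30, Thbs1 from -0.43 to -0.21 and Loxl1 from -1.65 to -0.41 (without 10 days replicate 5). Signal near background limits Lox, Loxl1 and Thbs2. No paired analysis was made. The titles carry ID numbers, and the only one shared between groups is that of vehicle replicate 2 and 48 h replicate 5.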
